A study of Homo sapiens with 16 samples.

Results

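The genes described are 10 heat shock proteins and chaperones of the cytosol and the mitochondria, named HSP90AA1, HSP90AB1, HSPA1A, HSPA1B, HSPA8, HSPB1, HSPD1, HSPE1, HSPH1 and DNAJB1. They were chosen by name, with earlier results of these data known, from 31496 genes with at least one row in the count table. All 10 passed the filter on low counts, as did 19836 genes in all. RNA was sequenced from HCT116 cells, a human colon cancer line, in which CRISPR interference, a repression of transcription at a guided site, was used to deplete the long noncoding RNA NORAD. The groups were knockdown cells at 24, 48 and 96 h and wild-type cells at the same times, with 2 libraries per group at 24 h and 3 at 48 h and at 96 h. The labels give the same protocol for the knockdown and the wild-type samples, in which doxycycline at 0.5 µg/ml in the medium for the stated time induces the knockdown, and they do not say separately whether wild-type cells received it. The labels used here name neither a guide, a clone nor a control vector, so what else differed between the knockdown and wild-type cells is not known here. They also do not say that replicates were separate cultures, so each p-value is set against a spread among libraries that may be technical.

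Molecular chaperones bind unfolded or partly folded proteins and help them to fold, to assemble or to be handed on for degradation. HSP70 proteins work in cycles of ATP hydrolysis that are started by J-domain co-chaperones and ended by nucleotide exchange factors, and HSP90 proteins act later, on near-native clients such as kinases and hormone receptors. In the mitochondrial matrix the HSP60 and HSP10 proteins form a closed chamber for folding. Many of these genes are induced together by the transcription factor HSF1, which binds heat shock elements, arrays of inverted NGAAN units, and cancer cell lines often express them at high basal levels.

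NORAD itself had 230 and 188 CPM (counts scaled to a common library size with TMM factors) in the libraries labelled knockdown at 24 h, against 179 and 201 CPM in wild type. At 48 h NORAD had 18.1 to 24.8 CPM in knockdown against 155 to 162 CPM in wild type, and at 96 h 66.2 to 79.9 CPM in knockdown against 181 to 184 CPM in wild type. At 24 h the groups overlapped (log2 fold change 0.14, edgeR adjusted p = 0.523), so a direction at 24 h is one between libraries so labelled. Library totals lay between 28391784 and 51853876 estimated counts. Replicate 3 of the 48 h knockdown stood apart from its 2 fellows, and its retained-intron transcripts took 4.18% of counts against 5.73% and 5.29% in replicates 1 and 2. Of 9 colon epithelial markers in the table, EPCAM, KRT8, KRT18 and KRT19 were high, averaging from 262 CPM for EPCAM to 2120 CPM for KRT19, and CDH1 and CDX2 averaged 91.1 and 22.3 CPM. The other 3 were near or at 0, with means of 0.946 CPM for CEACAM5 and 0.381 CPM for LGALS4, and CDX1 at 0 in 11 of the 16 libraries. Of 12 markers of other cells in the table, COL1A1 and CD68 averaged 54.0 and 22.8 CPM, and each of the others averaged under 1 CPM, including PTPRC of leukocytes at 0.145 CPM.

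The promoters are shown for 4 genes, chosen to set a 3-unit or longer heat shock element beside a shorter match. RefSeq promoter windows (GRCh38.p14, 250 bases before to 50 after each start site, 300 bases) were found for all 10 genes, 16 windows in all. A 3-unit element was searched as GAANNTTCNNGAA or TTCNNGAANNTTC and a 2-unit element as GAANNTTC or TTCNNGAA, on both strands, the 3-unit pattern including the 2-unit one. A 3-unit element lay in a window of 4 of the 10 genes, HSP90AA1, HSP90AB1, HSPA8 and HSPD1, against 0.608% of 27305 genes with a window and 0.49% of 35116 windows. A 2-unit element lay in a window of 8 of the 10 genes, against 16.2% of genes with a window, and the windows of HSPE1 and HSPH1 held neither. Capitals mark the matched elements, 3-unit where there is one and 2-unit in HSPA1B, and each sequence is read from 5′ to 3′ on the gene's strand.
HSPD1, chr2:197499791-197500090, minus strand: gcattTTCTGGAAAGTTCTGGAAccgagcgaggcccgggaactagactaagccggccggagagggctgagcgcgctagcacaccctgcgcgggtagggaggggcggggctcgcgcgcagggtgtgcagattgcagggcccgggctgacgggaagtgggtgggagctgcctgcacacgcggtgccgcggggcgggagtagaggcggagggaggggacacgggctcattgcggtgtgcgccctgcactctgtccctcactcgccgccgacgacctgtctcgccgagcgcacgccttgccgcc
HSP90AA1, chr14:102086995-102087294, minus strand: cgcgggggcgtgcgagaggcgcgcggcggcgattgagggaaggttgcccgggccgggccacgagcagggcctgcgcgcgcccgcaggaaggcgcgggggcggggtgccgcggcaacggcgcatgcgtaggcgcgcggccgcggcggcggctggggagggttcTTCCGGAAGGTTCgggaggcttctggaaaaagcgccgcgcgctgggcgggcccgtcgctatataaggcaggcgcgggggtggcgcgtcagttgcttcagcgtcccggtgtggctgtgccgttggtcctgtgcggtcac
HSPA8, chr11:123062087-123062386, minus strand: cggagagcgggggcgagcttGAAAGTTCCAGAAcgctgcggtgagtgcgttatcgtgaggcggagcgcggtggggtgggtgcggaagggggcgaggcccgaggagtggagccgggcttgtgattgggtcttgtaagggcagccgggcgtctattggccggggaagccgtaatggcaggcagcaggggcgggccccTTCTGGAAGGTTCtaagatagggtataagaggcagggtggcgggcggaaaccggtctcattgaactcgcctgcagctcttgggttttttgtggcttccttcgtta
HSPA1B, chr6:31827488-31827787, plus strand: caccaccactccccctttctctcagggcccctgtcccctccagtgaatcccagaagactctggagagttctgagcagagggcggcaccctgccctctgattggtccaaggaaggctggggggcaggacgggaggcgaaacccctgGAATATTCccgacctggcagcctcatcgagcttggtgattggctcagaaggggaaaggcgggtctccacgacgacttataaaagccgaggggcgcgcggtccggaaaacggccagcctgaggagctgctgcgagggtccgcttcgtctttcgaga
In the HSPD1 window shown 2 overlapping matches form 1 run, which lies 228 to 245 bases upstream of the RefSeq start of that window. HSPD1 has another RefSeq start, at 197500274, and the run lies downstream of it. HSPD1 and HSPE1 are transcribed in opposite directions. The RefSeq start of the HSPD1 window shown and that of HSPE1 are 539 bases apart on chromosome 2. This run, at 197500068 to 197500085, lies between them, 294 bases from the RefSeq start of HSPE1. The most abundant GENCODE transcripts start elsewhere, HSPD1-202 at 197500047 and HSPE1-201 at 197499994. The run does not lie between those starts, and lies downstream of that of HSPE1-201. The start sites of RefSeq and of the most abundant GENCODE transcript differed by up to 804 bases for these 4 windows, the most for HSPA8. The 3-unit matches of HSP90AB1 lay only in a window whose start was 856 bases from that of HSP90AB1-203, its most abundant transcript. The HSP90AB1 window 14 bases from that start held neither element. The windows of HSPE1 and HSPH1 started 385 and 461 bases from their most abundant transcripts. So a window with or without an element need not be the promoter in use in these cells. These matches are a description of letters and not of binding.

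Levels of different genes were compared per length, as TPM (counts divided by transcript length and scaled to a common total). In the 48 h knockdown the order of mean TPM was HSP90AA1 at 1416, HSP90AB1 at 1226, HSPB1 at 1160, HSPA8 at 982, HSPE1 at 483, HSPD1 at 314, HSPA1B at 226, DNAJB1 at 113 and HSPH1 at 74.0 TPM. In the 48 h wild type HSP90AB1 had 1564, HSP90AA1 1497, HSPA8 1457, HSPB1 1232, HSPE1 700.2, HSPD1 526, HSPA1B 362, DNAJB1 134 and HSPH1 70.8 TPM. The ranges of neighbours in that order overlapped from the 2 HSP90 genes down to HSPA8 in both groups, and in the knockdown also between HSPD1 and HSPA1B. HSPB1, the small heat shock protein HSP27, ranked first at 24 h in both groups, at 1993 TPM in libraries labelled knockdown and 2055 TPM in wild type, and at 96 h in the knockdown, at 1092 TPM. At 24 h the libraries labelled knockdown had HSP90AA1 at 1390, HSP90AB1 at 1365, HSPA8 at 1083, HSPD1 at 511, HSPE1 at 468.5, HSPA1B at 181, DNAJB1 at 92.0 and HSPH1 at 41.0 TPM, and only the ranges of HSPD1 and HSPE1 overlapped. The 24 h wild type had HSP90AB1 at 1799, HSP90AA1 at 1791, HSPA8 at 1288, HSPD1 at 747, HSPE1 at 620.5, HSPA1B at 209, DNAJB1 at 99.0 and HSPH1 at 49.3 TPM, and only the HSP90 genes overlapped. At 96 h the knockdown had HSP90AB1 at 872, HSP90AA1 at 589, HSPA8 at 520.4, HSPD1 at 265, HSPE1 at 242, HSPA1B at 163, DNAJB1 at 62.6 and HSPH1 at 20.4 TPM, and the wild type had HSP90AB1 at 1225, HSPB1 at 1109, HSP90AA1 at 924, HSPA8 at 755, HSPD1 at 439.6, HSPE1 at 382, HSPA1B at 169, DNAJB1 at 72.0 and HSPH1 at 31.8 TPM. HSP90AA1 and HSPA8 overlapped at 96 h in both groups, and HSPD1 and HSPE1 in wild type. HSPH1 was the lowest of these 9 genes in all 6 groups.

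The 10 genes together held 0.705% and 0.719% of all TPM in libraries labelled knockdown at 24 h against 0.838% and 0.893% in wild type. At 48 h they held 0.549% to 0.662% in knockdown against 0.730% to 0.767% in wild type, and at 96 h 0.373% to 0.391% in knockdown against 0.482% to 0.539% in wild type. The groups did not overlap at any of the 3 times, and the share was lowest at 96 h in both. In RNA from a whole culture, fewer cells with a transcript and less of it per cell cannot be told apart.

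HSPD1 and HSPE1 encode HSP60 and its co-chaperonin HSP10, the barrel and lid of the mitochondrial folding chamber. HSPD1 (chromosome 2, 197486581 to 197516737, minus strand; GENCODE 29, GRCh38, as for all gene positions here) had 593 and 561 CPM in libraries labelled knockdown at 24 h, against 1005 and 1088 CPM in wild type. At 48 h it had 615, 606 and 736 CPM in knockdown against 1155, 1122 and 1119.5 CPM in wild type. At 96 h it had 502, 471 and 427 CPM in knockdown against 743, 783 and 759 CPM in wild type. At each time all knockdown libraries lay below all wild-type ones, and with TMM scaling and all libraries HSPD1 had the most negative fold change of the 10 genes at 24 h and 96 h. At 48 h HSPD1 and HSPA1B differed by less than their errors, and HSPA1B was the more negative with upper-quartile scaling (-0.684 against -0.683 for HSPD1), with abundance-dependent scaling (-0.57 against -0.55) and without replicate 3 of the 48 h knockdown (-1.05 against -0.89). The log2 fold change of HSPD1 was -0.86 ± 0.10 (SE) at 24 h, -0.80 ± 0.08 at 48 h and -0.71 ± 0.08 at 96 h. The edgeR quasi-likelihood test with Benjamini-Hochberg adjustment over 19836 genes gave it an adjusted p of 7.7e-06, 3.7e-07 and 6.1e-06 in that order of times.

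HSPE1 (chromosome 2, 197499994 to 197503457, plus strand) had 213 and 245 CPM in libraries labelled knockdown at 24 h against 346 and 392 CPM in wild type. It had 335, 386 and 368 CPM in knockdown at 48 h against 570, 565 and 556 CPM in wild type, and 188, 194 and 177 CPM in knockdown at 96 h against 271, 295 and 281 CPM in wild type. HSPE1 fell at each time without overlap, with log2 fold changes of -0.69 ± 0.09, -0.64 ± 0.08 and -0.60 ± 0.08 (SE; edgeR adjusted p = 4.2e-05, 2.5e-06 and 1.8e-05). Summing HSPE1 with the readthrough gene HSPE1-MOB4, which held 571 counts over all libraries beside 202424 of HSPE1, left a log2 fold change of -0.64 at 48 h. GENCODE annotates 63 pseudogenes of the 10 genes, none with a row in the table, so reads from them would have been counted to the parent genes if they matched them.

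**Figure D1:**
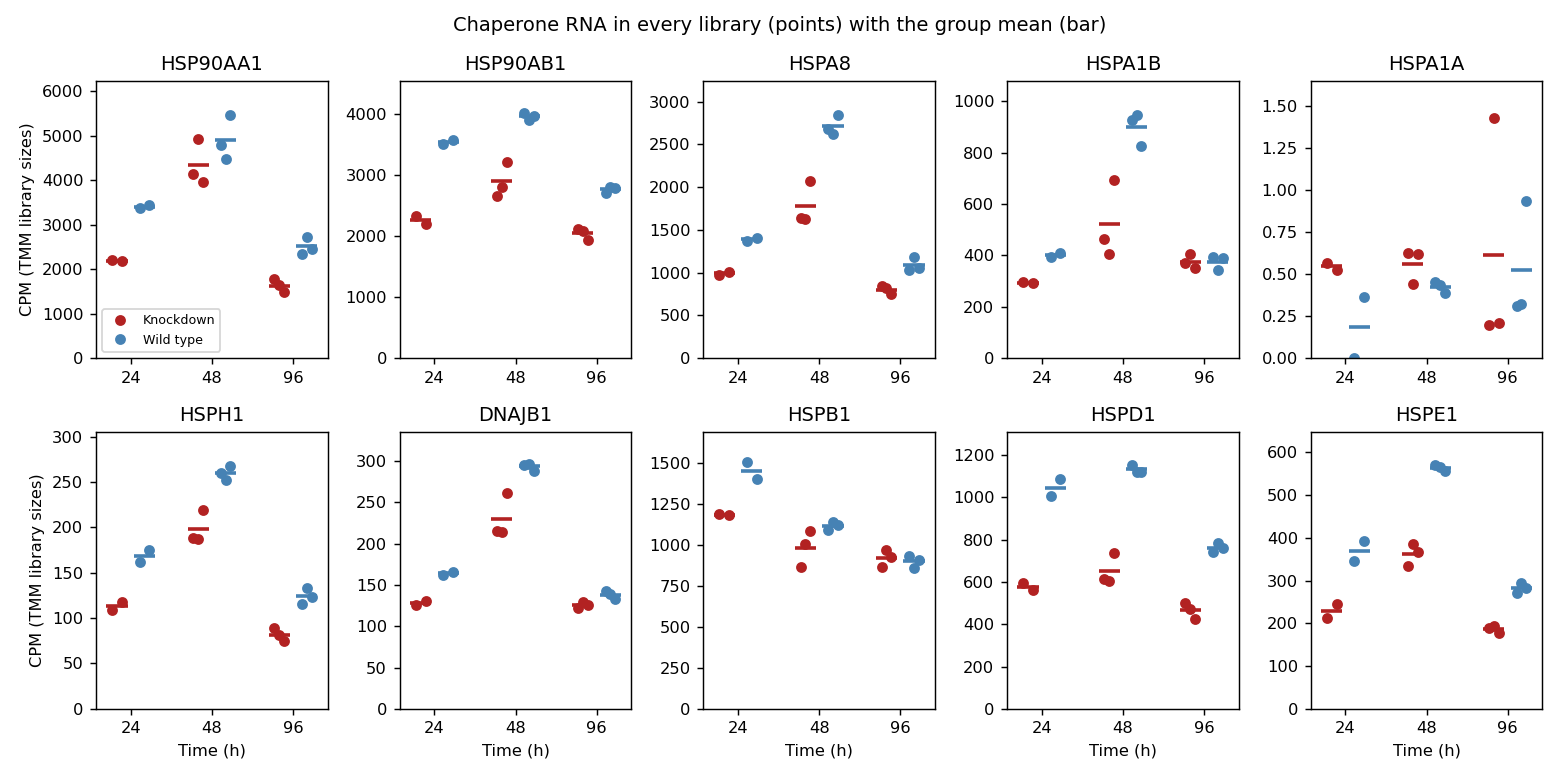
CPM on TMM library sizes (y axis, from 0, a scale per gene) of the 10 genes at 24, 48 and 96 h (x axis), with knockdown libraries in red at the left and wild-type libraries in blue at the right; points are libraries and bars are group means. HSPD1 and HSPE1 do not overlap between knockdown and wild type at any time, HSPA1B overlaps at 96 h, and HSPA1A lies between 0 and 1.43 CPM throughout.

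HSP90AA1 and HSP90AB1 encode the inducible and the constitutive cytosolic HSP90. HSP90AA1 (chromosome 14, 102080738 to 102139699, minus strand) had 2205 and 2182 CPM in libraries labelled knockdown at 24 h against 3368 and 3439 CPM in wild type. At 48 h it had 4138.5, 4939 and 3956 CPM in knockdown against 4804, 4477 and 5469 CPM in wild type, and the groups overlapped. At 96 h it had 1771, 1649.5 and 1482 CPM in knockdown against 2353, 2734.5 and 2461.5 CPM in wild type, again without overlap. HSP90AA1 fell at 24 h by 0.63 and at 96 h by 0.62 on the log2 scale (SE 0.12 and 0.10; edgeR adjusted p = 0.00075 and 0.00015). Its 48 h log2 fold change of -0.18 ± 0.10 did not pass (edgeR adjusted p = 0.156), and without replicate 2 of the 48 h knockdown it was -0.28 and passed (adjusted p = 0.0299). HSP90AB1 (chromosome 6, 44246166 to 44253888, plus strand) had 2330 and 2204 CPM in libraries labelled knockdown at 24 h against 3508.5 and 3582 CPM in wild type. At 48 h it had 2667, 2811 and 3226 CPM in knockdown against 4030.5, 3907 and 3969 CPM in wild type, and at 96 h 2122, 2094 and 1936 CPM in knockdown against 2716, 2813 and 2786 CPM in wild type. HSP90AB1 fell at each time without overlap, with log2 fold changes of -0.65 ± 0.09, -0.45 ± 0.08 and -0.43 ± 0.08 (SE; edgeR adjusted p = 7.7e-05, 0.00011 and 0.00053).

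HSPA8 encodes the constitutive cytosolic HSP70, which also uncoats clathrin vesicles. HSPA8 (chromosome 11, 123057489 to 123063230, minus strand) had 969 and 1012 CPM in libraries labelled knockdown at 24 h against 1376 and 1407 CPM in wild type. At 48 h it had 1640.1, 1630.4 and 2074.5 CPM in knockdown against 2685, 2619 and 2842 CPM in wild type, and at 96 h 842, 819 and 748 CPM in knockdown against 1034, 1186 and 1056 CPM in wild type. HSPA8 fell at each time without overlap, by 0.49, 0.61 and 0.44 on the log2 scale (SE 0.11, 0.09 and 0.09; edgeR adjusted p = 0.0031, 2.7e-05 and 0.0020). Without replicate 2 of the 24 h knockdown the 24 h call was lost (adjusted p = 0.0514). Replicate 3 of the 48 h knockdown lay nearest to wild type, and without it the 48 h log2 fold change was -0.73. HSPH1, the HSP110 that exchanges nucleotide on HSP70 (chromosome 13, 31134974 to 31162388, minus strand), had 109 and 117 CPM in libraries labelled knockdown at 24 h against 161 and 175 CPM in wild type. At 48 h it had 187 to 219.5 CPM in knockdown against 253 to 268 CPM in wild type, and at 96 h 74.5 to 89.5 CPM in knockdown against 115 to 133 CPM in wild type. HSPH1 fell at each time, with log2 fold changes of -0.57 ± 0.10, -0.39 ± 0.08 and -0.60 ± 0.08 (SE; edgeR adjusted p = 0.00052, 0.00091 and 4.4e-05). The 48 h direction of HSPH1 depends on the scale, since its mean TPM was 74.0 in knockdown and 70.8 in wild type, with overlapping ranges of 62.0 to 80.4 and 63.1 to 86.1 TPM. That 48 h call was also lost in edgeR's glmTreat, which tests for a change beyond 1.2-fold (adjusted p = 0.102).

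HSPA1A and HSPA1B, the stress-inducible HSP70 genes, lie next to each other on chromosome 6 (31815464 to 31817946 and 31827735 to 31830255, both on the plus strand) and are near-identical. Over all libraries HSPA1B was assigned 297886 estimated counts and HSPA1A 306, and the division between them is uncertain. HSPA1B had 297 and 292 CPM in libraries labelled knockdown at 24 h against 396 and 411 CPM in wild type. At 48 h it had 466, 404 and 694 CPM in knockdown against 927, 948 and 827 CPM in wild type, and at 96 h 372, 404 and 349 CPM in knockdown against 395, 342 and 389.5 CPM in wild type. The 48 h groups did not overlap, although replicate 3 of the knockdown lay well above its 2 fellows, and the 96 h groups overlapped. HSPA1B fell at 48 h by 0.79 on the log2 scale (SE 0.15; edgeR adjusted p = 0.00089), and by 1.05 without that replicate. Its log2 fold change of -0.45 ± 0.18 at 24 h did not pass over all 16 libraries (edgeR adjusted p = 0.107), and passed when only the 24 h libraries were fitted (adjusted p = 0.00014), in DESeq2 (adjusted p = 0.0412) and in edgeR without replicate 2 or 3 of the 48 h knockdown (adjusted p = 0.0248 and 0.00068). At 96 h its log2 fold change was -0.0013 ± 0.15. HSPA1A had between 0 and 1.43 CPM in every library and passed at no time in the comparison of knockdown with wild type, and summing it with HSPA1B left the 48 h value at -0.79.

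DNAJB1 encodes HSP40, the J-domain partner of inducible HSP70 (chromosome 19, 14514770 to 14529770, minus strand). It had 126 and 130.4 CPM in libraries labelled knockdown at 24 h against 163 and 166 CPM in wild type. At 48 h DNAJB1 had 214 to 261 CPM in knockdown against 288 to 297 CPM in wild type, and at 96 h 122 to 130 CPM in knockdown against 133 to 142 CPM in wild type. DNAJB1 fell at 24 h and 48 h by 0.36 and 0.35 on the log2 scale (SE 0.09 and 0.07; edgeR adjusted p = 0.0076 and 0.00091). Its 96 h value of -0.13 ± 0.07 did not pass (edgeR adjusted p = 0.313), though the groups did not overlap, and the 24 h call was lost without either 24 h knockdown library or wild-type replicate 2 (adjusted p = 0.0746 to 0.1002). The 24 h value of DNAJB1 was -0.15 with total-count and -0.14 with abundance-dependent scaling, and passed with neither (edgeR adjusted p = 0.207 and 0.158), and glmTreat called DNAJB1 at neither 24 h nor 48 h (adjusted p = 0.327 and 0.165). HSPB1 (chromosome 7, 76302544 to 76304295, plus strand), whose oligomers hold unfolded proteins without ATP, had 1188 and 1183 CPM in libraries labelled knockdown at 24 h against 1505 and 1402 CPM in wild type. At 48 h HSPB1 had 867, 1003 and 1083 CPM in knockdown against 1091, 1137 and 1124 CPM in wild type, and at 96 h 866.5 to 969 CPM in knockdown against 856 to 935 CPM in wild type. HSPB1 passed at 24 h only, at -0.29 ± 0.10 (SE; edgeR adjusted p = 0.0400), and that call was lost in 9 of the 16 fits that left out a library and under the 4 other scalings. Its log2 fold change was -0.18 ± 0.08 at 48 h (edgeR adjusted p = 0.0799) and 0.03 ± 0.08 at 96 h, and without replicate 3 of the 48 h knockdown the 48 h value was -0.26 and passed (adjusted p = 0.0067).

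**Figure D2:**
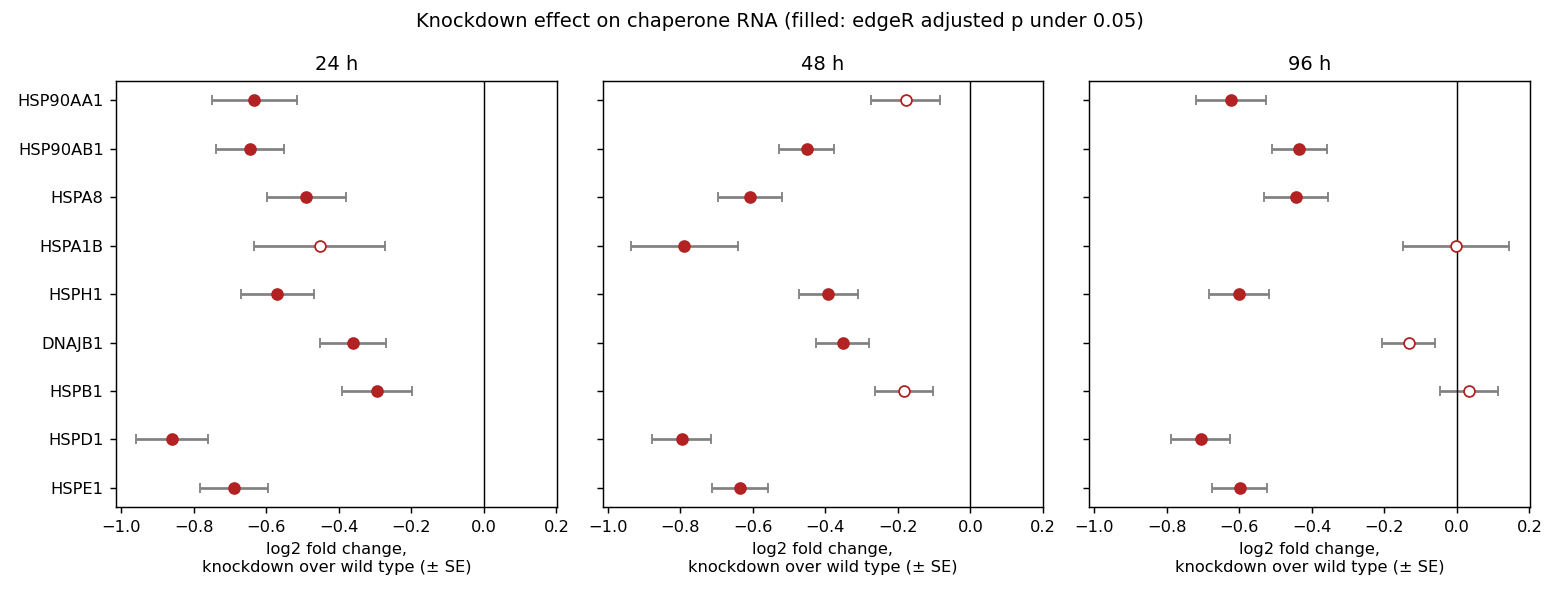
Log2 fold change of knockdown over wild type (x axis; points, edgeR estimates; bars, SE) for 9 of the 10 genes, HSPA1A being left out for its low counts, at 24, 48 and 96 h; filled points have an adjusted p under 0.05. HSPD1 lies at -0.86, -0.80 and -0.71, farthest from 0 at 24 h and 96 h in these TMM estimates and level with HSPA1B, at -0.79, at 48 h, and HSPB1 and HSPA1B lie at 0.03 and -0.0013 at 96 h.

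The 10 genes were chosen with earlier results of these data known, so the shares beside their counts are a description and no test. In counts, 8 of the 10 genes fell at 24 h, where 12.4% of all tested genes were called lower. At 48 h 7 of 10 fell, against 18.5% of tested genes called lower, and at 96 h 6 of 10 fell, against 5.15%. The 24 h count was 5 without replicate 2 of the 24 h knockdown. Over all tested genes, calls in either direction went from 3484 to 1500 in that fit. The 48 h count was 8 without replicate 3 of the 48 h knockdown. Over all tested genes, 4845 to 8869 were called at 48 h with a library left out, against 6591 with all libraries. None of the 10 was called higher in knockdown at any time, where 5.14%, 14.8% and 5.35% of tested genes were. Knockdown lay wholly below wild type for 9, 8 and 7 of the 10 genes at 24, 48 and 96 h, against 32.9%, 20.3% and 15.6% of tested genes, and HSPA1A lay wholly above at 24 h, where 26.8% of tested genes did. The median log2 fold change of the 10 genes was -0.53, -0.42 and -0.44, against -0.02, 0.06 and -0.01 over all tested genes. Beside these, retained-intron transcripts took 5.58% to 6.04% of counts in libraries labelled knockdown and 4.93% to 5.17% in wild type at 24 h, and 4.18% to 5.73% in knockdown and 4.05% to 4.26% in wild type at 48 h. Transcripts of the mitochondrial genome took 6.08% to 6.10% in libraries labelled knockdown and 4.89% to 5.05% in wild type at 24 h, and 12.3% to 13.8% in knockdown and 10.4% to 11.2% in wild type at 48 h. At 96 h both shares overlapped between knockdown and wild type, at 4.50% to 4.87% against 4.46% to 4.62% for retained introns and 14.8% to 17.4% against 15.5% to 16.6% for mitochondrial transcripts. The summed CPM of the markers of other cells was 116 to 121 in libraries labelled knockdown and 106 to 125 in wild type at 24 h, 76.2 to 92.7 in knockdown and 44.4 to 46.8 in wild type at 48 h, and 70.5 to 78.4 in knockdown and 55.6 to 65.7 in wild type at 96 h. Single genes carried these sums. At 48 h COL1A1 averaged 71.0 CPM in knockdown and 33.9 CPM in wild type, and CD68 11.5 and 10.1 CPM. At 96 h COL1A1 averaged 46.1 and 44.1 CPM, and CD68 had 24.8 to 28.7 CPM in knockdown and 12.5 to 17.2 CPM in wild type. The summed CPM of the epithelial markers was 6062 to 6632 in libraries labelled knockdown and 7257 to 7707 in wild type at 24 h, 4058 to 4893 in knockdown and 6557 to 6856 in wild type at 48 h, and 5361 to 5650 in knockdown and 4543 to 4993 in wild type at 96 h. The part of these values in the chaperone differences was not tested.

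How far the chaperone genes fell at 24 h and 48 h depended on the scaling of the libraries, while the 96 h values hardly moved. With total-count scaling the median of all genes moved to 0.19 at 24 h and 0.20 at 48 h, and the median of the 10 genes to -0.32 and -0.29. With a scaling that depends on abundance (cyclic loess), 3 of 10 genes fell at 24 h, HSPD1, HSPE1 and HSPH1, at -0.54, -0.43 and -0.37, where 1389 of 19836 tested genes were called lower. Under that scaling HSPB1 changed sign at 24 h and 48 h, to 0.06 and 0.07, and HSP90AA1 at 48 h, to 0.11, with none of these called. Among all genes called at 24 h, 29.3% were higher in knockdown with TMM, 36.0% with RLE, 53.7% with upper-quartile, 75.4% with total-count and 49.1% with abundance-dependent scaling. At 48 h the share was 44.4% with TMM and 64.3% and 68.9% with upper-quartile and total-count scaling. The same 6 genes, HSP90AA1, HSP90AB1, HSPA8, HSPD1, HSPE1 and HSPH1, were called lower at 96 h under all 5 scalings. Between 959 and 1224 of all tested genes were called lower at 96 h under these scalings.

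**Figure D3:**
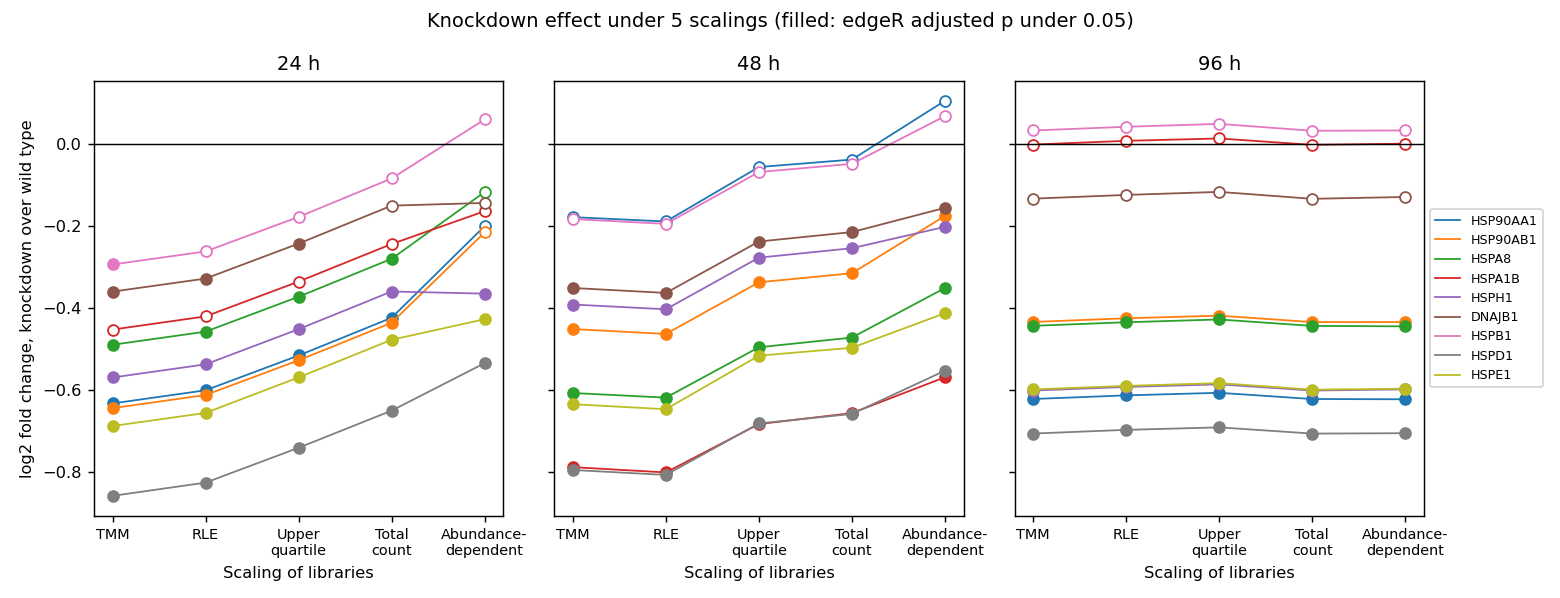
Log2 fold change of knockdown over wild type (y axis) for 9 of the 10 genes under 5 ways of scaling the libraries (x axis), at 24, 48 and 96 h; lines join the values of a gene and filled points have an edgeR adjusted p under 0.05. At 24 h HSPD1 lies between -0.86 and -0.54 and HSPB1 between -0.29 and 0.06, whereas at 96 h the lines are nearly flat.

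Whether the difference between libraries labelled knockdown and wild type changed between the 3 times was tested by an F test in the same fit. It passed for 0 of the 10 genes, against 9.44% of tested genes, with 3 genes at an unadjusted p under 0.05 and 2 called by DESeq2. HSP90AA1 and HSPA1B came nearest (edgeR adjusted p = 0.0518 and 0.0615). Without replicate 3 of the 48 h knockdown, 4 genes passed, HSPA1B (adjusted p = 3.8e-06), HSP90AA1 (0.0070), DNAJB1 (0.0115) and HSPB1 (0.0271). Over all tested genes, this F test called 1052 to 5035 genes when a library was left out, against 1872 with all libraries. The share of 9.44% is therefore not that of the fit without this replicate. HSPD1 and HSPE1, with similar values at the 3 times, had edgeR adjusted p-values of 0.693 and 0.872. Since NORAD was not called lower at 24 h, a gene that did not pass is not thereby shown to have a steady effect of NORAD depletion.

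The wild-type libraries alone showed a rise in CPM of most of these genes from 24 h to 48 h and a fall to 96 h. Time in culture cannot be told apart here from other differences between the library sets of each time. Of the 10 genes, 6 were higher in wild type at 48 h than at 24 h, where 22.5% of tested genes were called higher, and 1 was lower, against 22.1%. HSPA1B rose by 1.16 ± 0.17 on the log2 scale, HSPA8 by 0.96 ± 0.10 and DNAJB1 by 0.84 ± 0.08 (SE; edgeR adjusted p = 5.6e-05, 1.4e-07 and 7.0e-08). HSPH1, HSPE1 and HSP90AA1 rose by 0.63, 0.61 and 0.53, and HSPB1 fell by 0.38. HSP90AB1 and HSPD1, at 0.16 and 0.11, did not pass, although HSP90AB1 passed without replicate 3 of the 48 h knockdown (edgeR adjusted p = 0.0471), with abundance-dependent scaling (0.00046) and with only the groups compared (0.0398). HSPA1A passed in 1 alternative, without replicate 2 of the 24 h wild type (edgeR adjusted p = 0.0490), where the 1 library left in that group had 0 counts of it. HSP90AA1 had a lower mean TPM at 48 h than at 24 h in wild type, 1497 against 1791, so its direction depends on the scale. The mean TPM of the other 5 genes that rose was higher too. HSPD1 and HSP90AB1 were lower per length at 48 h, at 526 against 747 and 1564 against 1799 TPM, without overlap. The 10 genes together held 0.730% to 0.767% of wild-type TPM at 48 h against 0.838% and 0.893% at 24 h. At 96 h 9 of the 10 genes were lower in wild type than at 48 h, against 22.7% of tested genes called lower. HSPA8 fell by 1.31, HSPA1B by 1.26, DNAJB1 by 1.09, HSPH1 by 1.07, HSPE1 by 1.00 and HSP90AA1 by 0.97, and HSPD1, HSP90AB1 and HSPB1 fell by 0.57, 0.52 and 0.31. The HSPB1 call was lost with abundance-dependent scaling (-0.04, edgeR adjusted p = 0.554), with the replicate number as a block (-0.22, adjusted p = 0.204) and in glmTreat (adjusted p = 0.243), so that 8 of the 10 genes were called lower in each of these. Mitochondrial transcripts took 4.89% to 5.05%, 10.4% to 11.2% and 15.5% to 16.6% of wild-type counts at 24, 48 and 96 h, and their part in these differences was not tested. The libraries of 48 h wild type enter both comparisons and that of the 48 h knockdown, so the 3 results are not independent.

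Across the 16 libraries, which share their groups, the log2 CPM of HSP90AA1, HSP90AB1, HSPA1B, HSPA8, HSPD1, HSPE1, HSPH1 and DNAJB1 went together, with a Pearson r of 0.664 to 0.982 over 28 pairs and a median of 0.899. HSPB1 stood apart, with r between 0.134 and 0.532 with these 8 genes. The gene most like each by r over 16 libraries was DDX46 for HSP90AA1 (0.992), CCT5 for HSP90AB1 (0.978), H2AFY for HSPA1B (0.982), ODC1 for HSPA8 (0.991), SHB for HSPB1 (0.975), MCM6 for HSPD1 (0.988), NME1 for HSPE1 (0.987), KIF23 for HSPH1 (0.994) and PTDSS1 for DNAJB1 (0.993). These values are a description of groups that differ by time and are not tests.

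The wider chaperone network was described by 10 lists that hold 120 other genes, 119 of them tested. These lists were also chosen with earlier results of these data known, so their counts are a description and no test. At 24 h 54 of the 119 fell and 0 rose with TMM, by edgeR, and DESeq2 called 1 higher. At 48 h 52 fell and 7 rose, and at 96 h 20 fell and 3 rose, against the shares of all tested genes given above and 5.14%, 14.8% and 5.35% called higher. Their median log2 fold change was -0.26, -0.19 and -0.11. The counts moved with the scaling, to 27 lower and 5 higher at 24 h with total-count and 33 lower and 5 higher with abundance-dependent scaling. Of all 19836 tested genes, 810 were called lower and 2477 higher at 24 h with total-count scaling. The all-gene counts were 1389 and 1341 with abundance-dependent scaling, and 2465 and 1019 with TMM. At 48 h the list counts were 33 lower and 15 higher with total-count, 39 lower and 15 higher with upper-quartile and 35 lower and 22 higher with abundance-dependent scaling. Over all genes at 48 h, 2134 were lower and 4731 higher with total-count, and 2476 and 4453 with upper-quartile scaling. With abundance-dependent scaling the all-gene counts were 2808 and 2769, and with TMM 3663 and 2928. The list counts moved with single libraries too, to 31 lower at 24 h without replicate 2 of the 24 h knockdown. Over all tested genes that fit called 1500 in either direction at 24 h, against 3484 with all libraries. At 96 h 8 were lower without replicate 3 of the 96 h knockdown and 12 without replicate 2 of the 96 h wild type, against 32 lower and 8 higher without replicate 3 of the 48 h knockdown. Over all tested genes at 96 h, the fits without the 96 h libraries named called 1269 and 1239 in either direction, against 2083 with all libraries. The all-gene count without replicate 3 of the 48 h knockdown is not given here. The counts of each list that follow are those with TMM and all libraries. Genes are named for the times of the largest changes of a list, so a time left out need not be one without a change.

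Of 13 HSP90 co-chaperones, 9 fell at 24 h, 10 at 48 h and 6 at 96 h, and none rose. PPID, a cyclophilin that binds HSP90, had 40.7 ± 1.8 CPM in libraries labelled knockdown and 69.5 ± 3.5 CPM in wild type at 24 h (SD, n = 2 each), a log2 fold change of -0.77. PTGES3, the p23 that stabilises closed HSP90, fell at 24 h by 0.58. At 48 h PTGES3 had 299.6 ± 23.5 CPM in knockdown and 459 ± 13.9 CPM in wild type (SD, n = 3 each). FKBP4, an immunophilin of steroid receptor complexes, fell at 24, 48 and 96 h by 0.65, 0.57 and 0.38. CACYBP and CHORDC1 fell at 96 h by 0.53 and 0.41. Of 14 genes of the TRiC chaperonin, which folds actin and tubulin, and of prefoldin, 11 fell at 24 h, 11 at 48 h and 5 at 96 h, and none rose. TCP1, its subunit alpha, had 229 ± 12.4 CPM in knockdown and 331 ± 18.5 CPM in wild type at 96 h (SD, n = 3 each; edgeR adjusted p = 0.00037), and fell at all 3 times, by 0.68, 0.64 and 0.53. CCT5, its subunit epsilon, fell at all 3 times by 0.62, 0.52 and 0.35.

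Of 14 mitochondrial chaperones and proteases, 10 fell at 24 h, 8 at 48 h and 3 at 96 h, and none rose. HSPA9, the mitochondrial HSP70, had 269 ± 23.2 CPM in knockdown and 406 ± 19.0 CPM in wild type at 48 h (SD, n = 3 each). HSPA9 fell by 0.56, 0.59 and 0.40 at 24, 48 and 96 h. TRAP1, the mitochondrial HSP90, fell at 24 h and 48 h by 0.70 and 0.59. GRPEL1, a nucleotide exchange factor of HSPA9, fell at 24 h and 48 h by 0.57 and 0.74. GRPEL2 fell at 96 h by 0.44. Of 16 tested genes of the HSP70 family and its exchange factors, 7, 9 and 2 fell at 24, 48 and 96 h. Among them HSPBP1 and BAG1 fell at 24 h by 0.49 and 0.46, BAG1 and BAG2 at 48 h by 0.73 and 0.67, and HSPA4L and HSPA14 at 96 h by 0.36 and 0.32. Of 16 J-domain co-chaperones, 7, 6 and 1 fell and 0, 2 and 1 rose. DNAJC2, a ribosome-associated J protein, fell at 24 h by 0.66. DNAJA1 and DNAJA2 fell at 24 h by 0.29 and 0.26 and at 48 h by 0.43 and 0.40. DNAJC9 fell at 24, 48 and 96 h by 0.47, 0.28 and 0.25. DNAJB2 was higher in knockdown, at 44.7 ± 2.0 CPM against 30.3 ± 1.4 CPM in wild type at 48 h (SD, n = 3 each; edgeR adjusted p = 3.4e-05), and by 0.29 on the log2 scale at 96 h.

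Of 16 chaperones of the endoplasmic reticulum, 3, 1 and 1 fell and 0, 2 and 2 rose at 24, 48 and 96 h. HSPA5, the BiP protein, had 785 ± 142 CPM in libraries labelled knockdown and 1184.5 ± 165 CPM in wild type at 24 h (SD, n = 2 each), a log2 fold change of -0.59. SDF2L1 fell at 24 h and 96 h by 0.34 and 0.29, CANX (calnexin) fell at 48 h by 0.29, SIL1, an exchange factor of BiP, rose at 48 h and 96 h by 0.31 and 0.47, MANF rose at 48 h by 0.19 and CRELD2 at 96 h by 0.25. Of 5 other small heat shock proteins, 1 rose at 48 h, HSPB8, by 0.49, and none fell at any time. Of these, HSPB2, HSPB6 and CRYAB had 0 to 0.805 CPM in every library, and their low depth limits what can be detected. Of 6 heat shock factors and regulators of HSF1, 0, 3 and 0 fell and none rose, SIRT1 and HSF2 falling at 48 h by 0.38 and 0.23. HSF1 itself was the other that fell at 48 h, by 0.19 (edgeR adjusted p = 0.0470). Of 12 other genes known to be induced by HSF1, 6, 4 and 4 fell and none rose. HMOX1 fell at 24 h by 0.68 and MRPL18 at 24 h and 48 h by 0.66 and 0.47. Of 10 genes of disaggregation and proteotoxic stress, 3, 2 and 0 fell and 0, 2 and 0 rose. SQSTM1, the autophagy receptor p62, fell at 24 h by 0.69, UFD1 fell at 24 h by 0.28, UBQLN4 and VCP fell at 48 h by 0.48 and 0.30, and HDAC6 and ZFAND2B rose at 48 h by 0.39 and 0.23.

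**Figure D4:**
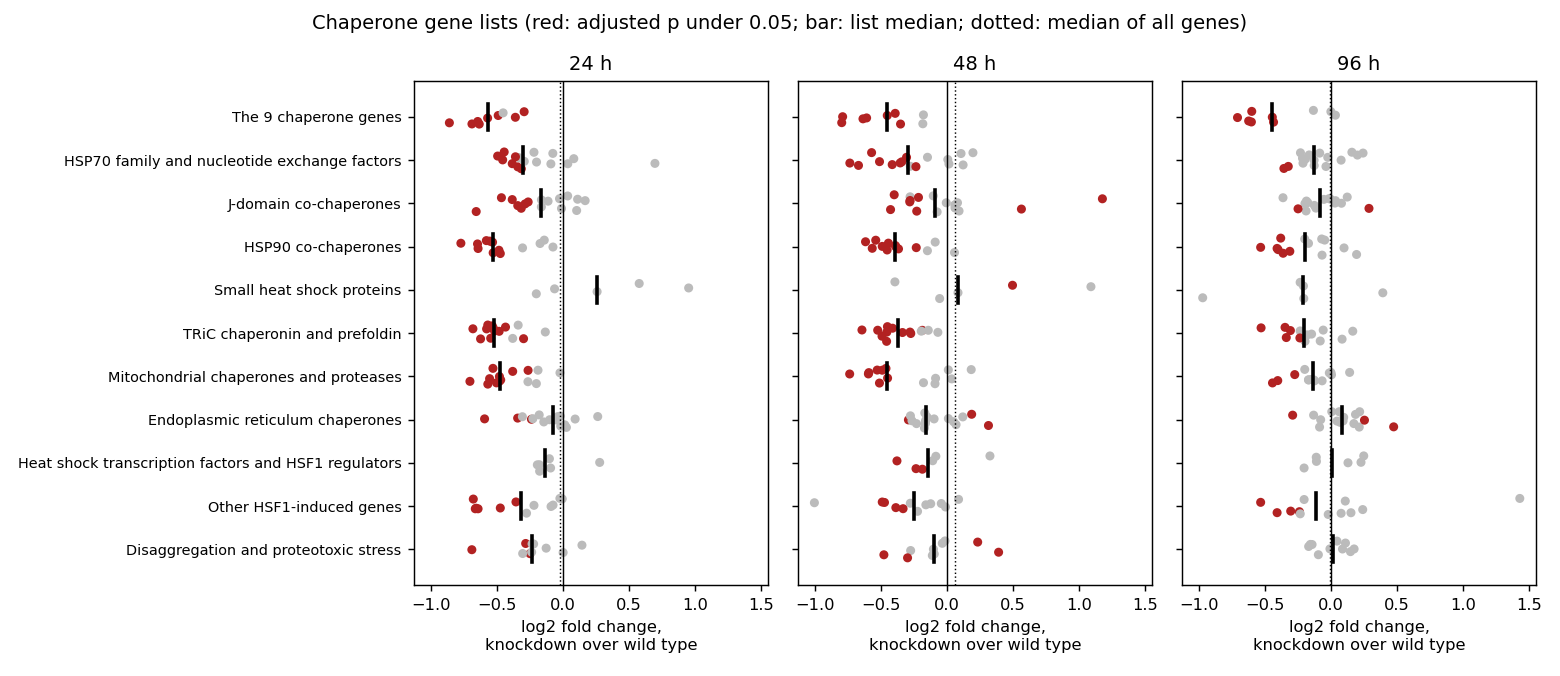
Log2 fold change of knockdown over wild type (x axis) for the genes of 10 chaperone lists and, in the top row, for 9 of the 10 genes named at the outset (y axis), at 24, 48 and 96 h; points are genes, red with an edgeR adjusted p under 0.05, bars are list medians and the dotted line is the median of all tested genes. The medians of the HSP90 co-chaperones lie at -0.53, -0.39 and -0.20 and those of the endoplasmic reticulum list at -0.08, -0.16 and 0.08.

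Transcript usage, the share of a gene's counts given to each annotated transcript, was tested for 17 transcripts of 9 of the 10 genes. By limma 0 of 17 passed at any of the 3 times, where 0.213%, 0.131% and 0.0297% of 40417 tested transcripts passed. At an unadjusted p under 0.05 there were 0, 2 and 0. A test by gene with edgeR's diffSpliceDGE called 1 of these genes, HSP90AA1, at 48 h (adjusted p = 1.9e-05). How many genes it called in all is not given here. The main transcript HSP90AA1-201 held 97.6% to 99.4% of counts in knockdown and 98.8% to 99.5% in wild type at 48 h. HSP90AA1-204, annotated as a target of nonsense-mediated decay, held 1.47%, 2.215% and 0.294% in knockdown and 0.254%, 0.3715% and 0.327% in wild type. Replicate 3 of the knockdown lay within the wild-type range. A call by gene does not say which transcript moved. Without replicate 3 of the 48 h knockdown, 2 transcripts passed at 48 h by limma. HSP90AB1-203 held 98.8% to 99.4% of HSP90AB1 in every library. HSPH1-201, the main coding transcript, held 69.3%, 46.7% and 90.9% of HSPH1 in the 48 h knockdown against 88.9%, 93.3% and 81.6% in wild type. HSPH1-206, annotated as a target of nonsense-mediated decay, held 12.5%, 31.6% and 1.13% in knockdown and 2.00%, 0.835% and 5.78% in wild type at 48 h. The groups overlapped for both HSPH1 transcripts. HSPA8 had the most divided counts, with HSPA8-201 and HSPA8-224 holding most. HSPA8-221, a shorter coding transcript, held 28.3%, 36.0% and 14.7% in the 48 h knockdown against 12.97%, 12.96% and 21.9% in wild type. At 96 h HSPA8-221 held 0.616% to 2.57% in knockdown and 0.182% to 0.831% in wild type. How kallisto divides reads between overlapping transcripts rests on a model, and the shares carry that uncertainty.

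**Figure D5:**
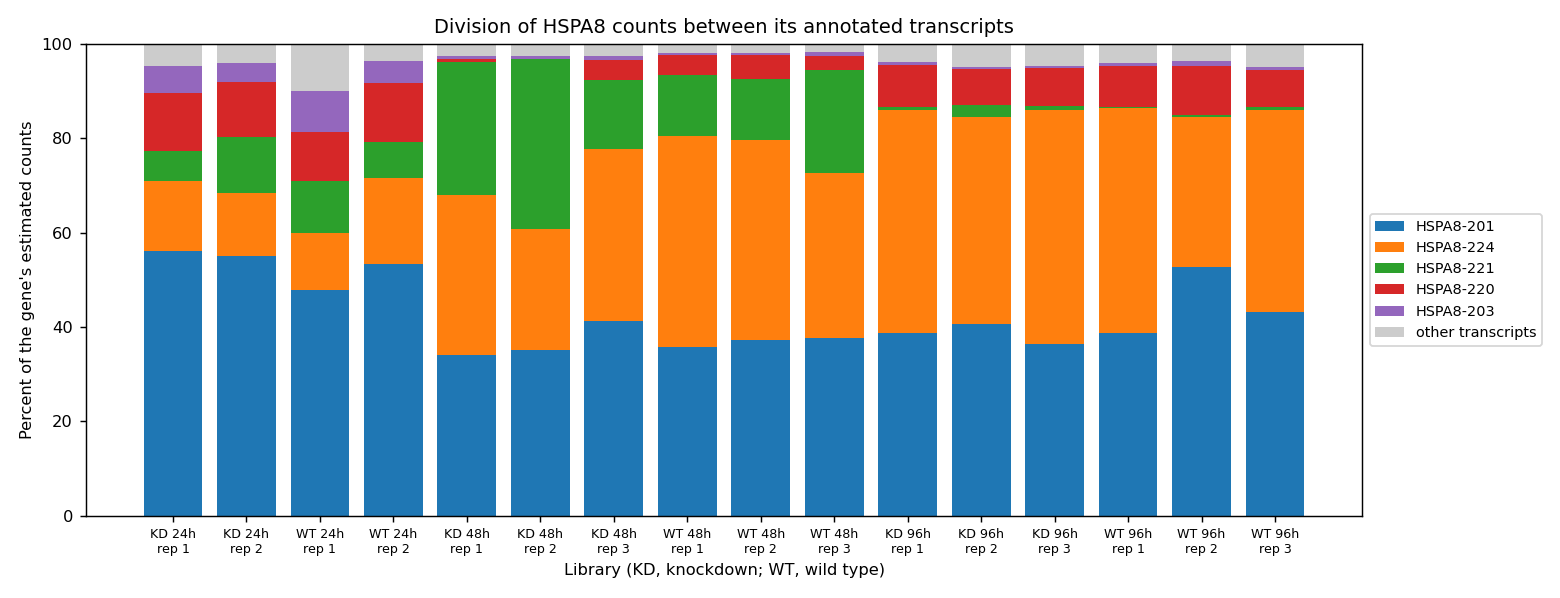
Percent of the estimated counts of HSPA8 (y axis) given to each annotated transcript in every library (x axis), knockdown libraries left of wild type at each time; colours are transcripts. HSPA8-221 takes 14.7% to 36.0% in the 48 h knockdown and 12.96% to 21.9% in the 48 h wild type, and under 3% in every 96 h library.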

How the data were processed

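Polyadenylated RNA was sequenced in 16 strand-specific libraries, grouped by the labels' titles. The deposited table gives kallisto's estimated counts for each transcript, in whole numbers. The tools kallisto and DESeq2 and the build hg19 are named, without versions, in the submitters' processing notes. Of 166096 transcripts, 156584 matched GENCODE 29 (GRCh38) by Ensembl identifier. The 9512 others held 2.75% to 3.40% of a library's counts and were left out. Counts of matched transcripts were added up per gene and rounded. Intervals were not drawn from counts, since the spread between libraries is larger than counting error.

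Genes passing filterByExpr were tested with edgeR 4.0.16 (TMM, the trimmed mean of M-values; robust glmQLFit, glmQLFTest) in R 4.3.3, in 1 model with a mean for each of 6 groups (10 residual degrees of freedom). Adjustment was by Benjamini-Hochberg over all genes, with a threshold of 0.05. Transcripts with at least 10% of their gene's counts in a group were tested for usage with limma 3.58.1 on log2 ratios to the gene's other transcripts (pseudocount 0.5). TPM used annotated lengths. Promoter windows are RefSeq's. The tests were checked on simulated data. The 10 genes and the lists were chosen with earlier results of these data known. Genes named from a list had the 2 largest changes in a direction at a time among those called, at a mean of 5 CPM or more and without overlap between groups. HSF1 was named outside that rule. Alternatives covered scalings, filters, DESeq2 1.42.0, other models and leaving out each library.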

Additional observations from a re-analysis of the deposited data

Results flagged for a closer look

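The difference between libraries labelled knockdown and wild type changed between 24 h, 48 h and 96 h for NORAD (edgeR F test, adjusted p = 8.3e-10), whose log2 fold change was 0.14, -2.88 and -1.33 at these times. Among the genes named from the chaperone lists this difference also changed for GRPEL1 (edgeR adjusted p = 0.0040), BAG1 (0.0053), TRAP1 (0.0091), SQSTM1 (0.0136), DNAJA2 (0.0243), MANF (0.0264), HSPA5 (0.0372), HSPB8 (0.0374) and HSPA4L (0.0471). These tests are the same F test on the same fit as for the 10 chaperone genes, of which none passed. Over all tested genes 9.44% passed it. The list genes named were picked from that fit by their largest called changes at single times. That choice favours differences that change between times, and the 10 genes were not chosen so. The results of the named genes and of the 10 genes therefore cannot be compared. How many of the 119 list genes passed is not given here.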

How the results depend on the processing

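The number of the 10 genes called at 24 h was 3 with abundance-dependent scaling and 5 with glmTreat at 1.2-fold, against 8 in the reported fit, and 5 to 9 when a library was left out. At 48 h and 96 h leaving out a library gave 7 to 8 and 6 to 6. For the change of the difference between times, called the effect between times here, the count was 1 with total-count scaling and 2 with each of upper-quartile and abundance-dependent scaling, protein-coding transcripts only and DESeq2, against 0, and 0 to 4 with a library left out. In wild type the counts were 7 to 8 at 48 h against 24 h and 9 to 9 at 96 h against 48 h with a library left out, and the second was 8 with abundance-dependent scaling, the replicate block or glmTreat, each without HSPB1. Transcripts called at 48 h were 0 to 2 with a library left out, and diffSpliceDGE called 1 gene. The cause of these changes was not tested. Under abundance-dependent scaling the log2 fold change of HSPB1 turned to 0.060 at 24 h and 0.068 at 48 h, that of HSP90AA1 to 0.11 and that of HSPA1A to -0.045 at 48 h. HSPA1B at 96 h, near 0 throughout, was 0.0136 with upper-quartile, 0.0078 with RLE and 0.00088 with abundance-dependent scaling, 0.0026 without a filter, 0.0072 with only the groups compared and 0.0078 with DESeq2. With a library left out, it ranged from -0.065 to 0.049, HSPB1 from -0.0042 to 0.076 and HSPA1A from -1.34 to 0.94 at 96 h, and HSPA1A from -0.41 to 0.55 in wild type at 96 h against 48 h.

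Samples with the same replicate number did not deviate together (correlations from -0.61 to 0.08), and 0 of 6 libraries at 48 h and 1 of 6 at 96 h correlated best with their own number. With the replicate number as a block, 7, 7 and 6 of the 10 genes were called at 24, 48 and 96 h, HSPB1 lost its 24 h call (adjusted p = 0.0874), and HSPA1A was -0.11 at 96 h and -0.81 in wild type at 96 h against 48 h. The all-gene counts with the block are not given here for knockdown against wild type, so no share stands beside these. Over all genes the calls were 900 with the block against 1872 for the effect between times, and 5652 against 9212 in wild type at 96 h against 48 h. The calls over all genes also fell to 1018, 2634 and 444 with glmTreat, against 3484, 6591 and 2083 at 24, 48 and 96 h. Of the 10 genes, glmTreat did not call HSPA8, HSPB1 and DNAJB1 at 24 h, HSPH1 and DNAJB1 at 48 h, and HSP90AB1 and HSPA8 at 96 h, and of the 119 list genes it called 25, 26 and 2 lower. Its all-gene counts above are in either direction, so they are no share for genes called lower. The calls over all genes were 4072 at 48 h and 3450 at 96 h with only the groups compared, 1145 and 2846 for the effect between times with unmatched transcripts kept and with DESeq2, and 1500 to 4558 at 24 h, 1239 to 3069 at 96 h and 1052 to 5035 between times with a library left out. Leaving out the 4 libraries of 24 h, an alternative chosen after seeing the data, gave 7 and 6 of the 10 genes at 48 h and 96 h. HSPA1A, at 0 to 1.43 CPM, passed in a single alternative, in wild type at 48 h against 24 h with 1 library of 0 counts left at 24 h, and its low depth limits what can be detected.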
